A study of Schizosaccharomyces pombe with 2 samples.

Results

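The mRNAs of Schizosaccharomyces pombe with 5 or more coding exons were examined in small RNA libraries of a wild-type (WT) strain and of a strain lacking exo2 (exo2Δ). A gene on chromosomes I, II or III was a member if its annotated span wholly contained at least 5 coding exons on its own strand. This gave 329 of 5118 mRNAs, 150 on chromosome I, 112 on chromosome II and 67 on chromosome III, or 6.43% of all. Both strains, YAM2394 (WT) and YAM2397 (exo2Δ::kanMX4), were h+ and carried the ade6-M210, ura4-D18 and leu1-32 alleles, and both were harvested during exponential growth. Gel-purified RNAs of 10 to 40 nt were read from a single end, over 40 nt. Each strain was sequenced in a single library, so no value here has a replicate error, the strains could not be tested against each other, and a difference in level cannot be told apart from a difference between the preparations.

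In fission yeast, introns are short and are removed by the spliceosome, which recognizes the start of the intron, a branch point and its end. What is then exported and translated is the chain of exons between the untranslated ends. Mature mRNA is degraded in the cytoplasm from its 5′ end by Exo2, the relative of budding yeast Xrn1, and from its 3′ end by the exosome. Small RNAs of 10 to 40 nt mapping in sense to an mRNA can include pieces of such degraded RNA, and the libraries hold no label that separates these from other small RNAs.

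Exons under 20 nt were 71 of the 2009 coding exon entries of the members, or 3.53%. Examples of their sequences are shown first, chosen after their values were seen, because they include exons of well-covered genes that held no read. They come from RefSeq's annotation of the ASM294v3 assembly, in which 312 of the 329 members have the same coding exon coordinates as the deposited table. Capitals mark the coding exon and lower case the adjoining intron, each over 30 bases, 5′ to 3′. The first 4 are the internal exons under 20 nt without a read in either library, from the members with the most reads:
gnd1 exon 2: tttcccctttagTGCCGgtatgtgaaaaag
srp2 exon 4: ctaacagtttagACTTTCgtatgcttcaaa
osh41 exon 2: gatattagAAGCACCTGGCTGgtatgcata
vma3 exon 2: ctaacgttttagCCCTGTgtaagcatcaac

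They lie at II:230434-230463 on the + strand (gnd1), I:4426642-4426671 on the - strand (srp2), II:344114-344143 on the - strand (osh41) and I:4954684-4954713 on the + strand (vma3). These exons are 5, 6, 13 and 6 nt long. The following 4 first exons under 20 nt held the most reads of their kind:
rpb1 exon 1: ATGAGCGGGATTCAGgtatgttgaacgtat
atp14 exon 1: ATGTCTCGAATTTTGgtacgttatacattg
pan2 exon 1: ATGGATGCGTGGAAAGAAgtaattattttt
nda3 exon 1: ATGCGTGAGATTgtacgagctattttaata

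Their positions are II:1591154-1591183 on the + strand (rpb1), II:2057573-2057602 on the - strand (atp14), I:732880-732909 on the + strand (pan2) and II:3965895-3965924 on the - strand (nda3). The 15-nt first exon of rpb1, which encodes the largest subunit of RNA polymerase II, held 50 reads in WT and 14 in exo2Δ. That of atp14 (15 nt), of a subunit of the mitochondrial ATP synthase, held 12 and 7 reads. That of pan2 (18 nt), of the catalytic subunit of the poly(A) nuclease, held 10 and 8, and that of nda3 (12 nt), of beta-tubulin, 5 and 9. Of the 71 member exons under 20 nt, 36 had no read in either library. Among internal exons of that length 21 of 33 had none, against 12 of 32 first exons. A read of spliced RNA that is longer than the internal exon it covers must reach into another exon. No mapping step for such reads is described. A first coding exon can instead adjoin untranslated sequence without an intron between. Whether this difference comes from how the reads were mapped and counted was not tested.

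The members had 6 coding exons at the median and at most 16. There were 162 members with 5 coding exons, 80 with 6, 46 with 7 and 41 with 8 or more. The coding exons numbered 2009 entries, with a median length of 126 nt and a range of 2 to 4902 nt. The last exon was longer than the first in 240 of 329 members, with medians of 188 and 73 nt. The 1680 gaps between coding exons were short, with a median of 50 nt and quartiles of 43 and 65 nt. In ASM294v3, 99.8% of the members' 1672 introns of at least 20 nt began with GT and 100% ended with AG, read on the sense strand. The longer start GTANGT, where N is any base, was found in 47.4% of member introns and in 57.4% of 3364 introns of mRNAs with 2 to 4 coding exons. The letters CTAAC, a common form of the branch point, occurred on the sense strand in 37.3% of member introns and in 49.1% of those of the other set, whose introns were longer, with a median of 59 nt. The shares were not compared by a test.

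Summed over the 9139 features that are not coding exons, the libraries held 13555082 reads in WT and 13678760 in exo2Δ, while the sn(o)RNA rows held 11320 and 13434. Some of these features overlap and count the same reads. The coding exons of exo2 itself held 251 reads in WT and 26 in exo2Δ, and the rest of that gene 3 and 31. Its exons were thus much lower but not empty in the library labelled exo2Δ. The members summed to 42392 reads in WT and 34804 in exo2Δ, or 2.86% and 2.83% of all mRNA reads. A member had a median of 76 reads in WT and 67 in exo2Δ, and 306 of the 329 reached a mean of 10 reads over both libraries. Medians over members below refer to these 306 unless stated. Intervals printed with shares and ratios are exact binomial 95% intervals. They hold counting error and no other, because the reads carried no molecular identifiers and copies made by PCR were counted.

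The 23 members under that level included 10 of the 16 wtf genes among the members, a family of meiotic drivers and their antidotes with near-identical copies, all 16 on chromosome III. wtf4, wtf8, wtf16, wtf18 and wtf19 had 0 reads in both libraries, where a count of 0 allows up to 3 reads in each. The 16 wtf members together held 151 reads in WT and 147 in exo2Δ, and wtf14 held the most, with 57 and 55. Reads were kept only where they had a single place in the genome, so reads shared between wtf copies are not in these counts. The other 13 members under the level included genes of meiotic chromosomes as well as genes of other roles, such as rev7, of a translesion DNA polymerase subunit, with 10 and 6 reads. The gene of the axis protein Hop1 had 2 reads in WT and 1 in exo2Δ. The gene of the meiotic cohesin subunit Rec8 had 4 and 2, that of Rec11, another meiotic cohesin subunit, had 10 and 8, and that of Rec12, which makes meiotic DNA breaks, had 11 and 2. These genes fall outside the rule for named genes and were chosen after their values were seen.

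Coding exons held most of the small RNA reads of these mRNAs in both libraries. Over all 329 members, 34614 of 42392 reads in WT lay in coding exons, a share of 81.7% (81.3 to 82.0%). In exo2Δ the share was 80.8% (80.4 to 81.2%), from 28133 of 34804 reads. Coding exons make up 60.6% of the members' length, so the difference remains per nt. Pooled tag density was 0.0710 tag/nt in exons and 0.0245 tag/nt in the rest of the gene in WT, a ratio of 2.90, and 0.0576 and 0.0210 tag/nt in exo2Δ, a ratio of 2.74. ppk26 supplied 4555 of the WT exon reads. Without it the exon share was 79.9% in WT (79.5 to 80.3%) and 80.3% in exo2Δ (79.9 to 80.7%), with density ratios of 2.59 and 2.65, so the order of the libraries in the pooled values turned. For a single member the median exon share was 85.7% in WT (quartiles 69.3 and 94.2%) and 85.6% in exo2Δ (68.3 and 94.4%). It was 84.0% and 83.8% over all mRNAs, 83.6% in both libraries with 1 coding exon, and 84.6% and 83.9% with 2 to 4. The share itself is thus not particular to the members. With 1 read added to each part, the members' median density of the rest of the gene over coding exons was -1.79 on the log2 scale in WT. In exo2Δ it was -1.86. The exon density was thus 3.45 and 3.64 times that of the rest at the median.

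**Figure D1:**
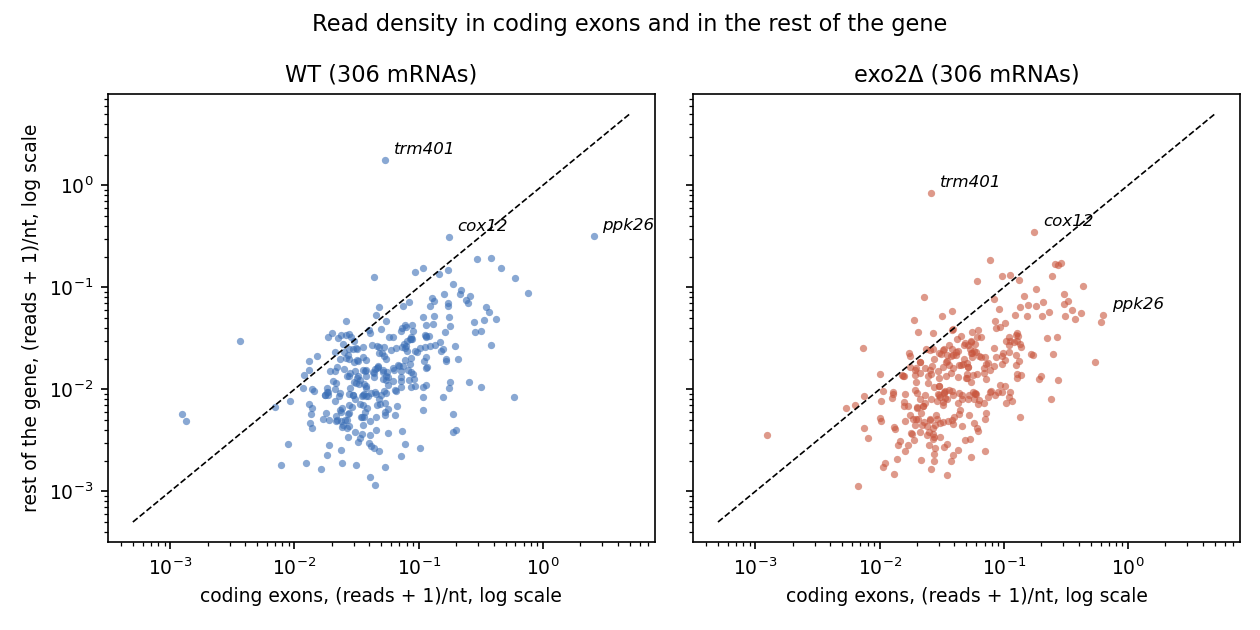
Read density of coding exons (horizontal) and of the rest of the gene (vertical) in WT (left) and exo2Δ (right), as (reads + 1)/nt on log scales. Each point is 1 of the 306 members that reached 10 reads on average, and the dashed line marks equal density. Most points lie below the line in both panels, while trm401 and cox12 lie above it.

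The rest of the gene was denser than the coding exons in 24 of 306 members in WT, where the background over all mRNAs was 13.4%, and in 21 in exo2Δ, with a background of 14.2%. For mRNAs with 1 coding exon, whose rest is untranslated sequence and no annotated coding intron, the median log2 ratio of rest over exon was -1.10 in WT and -1.06 in exo2Δ. It was -1.60 and -1.52 for mRNAs with 2 to 4 coding exons. The members' values were thus lower than both in each library, and no test of the difference was possible.

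The rest of the gene mixes introns with untranslated parts, and the deposited table gives no value for introns alone. In 18 members, however, the annotated gene ended where its coding sequence ended, so that the rest was introns only. Their introns held 25 reads over 5597 nt in WT and 17 in exo2Δ, while their exons held 668 and 562 reads over 21030 nt. Intron density was 0.00447 tag/nt in WT and 0.00303 tag/nt in exo2Δ, against exon densities of 0.0318 and 0.0267 tag/nt. The exon density was 7.11 times that of introns in WT (4.77 to 11.1) and 8.80 times in exo2Δ (5.45 to 15.2). Where a read crossing an exon's edge was counted in the exon, it is absent from the intron count. How far this lowered intron density was not tested. By single member the median log2 ratio of rest over exon was -2.02 in WT and -2.71 in exo2Δ (13 members with enough reads). tad2, which encodes a subunit of the tRNA adenosine deaminase, had 85 and 71 reads in the respective libraries, all in its 7 exons and 0 in 254 nt of introns. trm11, of a tRNA methyltransferase, had 2 of 121 reads outside exons in WT and 0 of 100 in exo2Δ. Both were chosen after their values were seen. At the other end, 64 members had a rest that was over 75% untranslated sequence. Their pooled exon density was 2.22 times that of the rest in WT and 2.18 times in exo2Δ. The median log2 ratio of rest over exon was -1.04 in WT and -1.06 in exo2Δ over the 62 with enough reads. This median was close to that of mRNAs with a single coding exon. The medians did not rise at each step between these ends. In the 21 members whose rest was over 0 to 25% untranslated, they were -2.71 and -2.87 (18 with enough reads).

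Some members had most of their reads outside coding exons. In trm401, which encodes a tRNA cytosine methyltransferase, 691 of 801 reads in WT and 333 of 386 in exo2Δ lay in the 396 nt that are not coding, of which 178 nt are introns, 73 nt precede the first coding exon and 145 nt follow the last. That density was 32.8 times that of its exons in both libraries. Both parts were lower in exo2Δ by the same factor, 0.481 for exons (0.340 to 0.673) and 0.481 for the rest (0.421 to 0.549). The gene held 8.88% of the members' WT reads outside coding exons. Without it the summed rest went from 7087 reads in WT to 6338 in exo2Δ, a ratio of 0.892 (0.863 to 0.923), against 0.856 (0.828 to 0.884) with it.

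The other members with the largest share outside exons had long annotated ends or short coding parts. alp41, a small GTPase gene of the tubulin-folding pathway, has 4972 nt after its last coding exon, and 137 of 156 reads in WT and 120 of 150 in exo2Δ lay outside exons. Per nt, its rest was less dense than its exons, with ratios of 0.765 and 0.424. mre11, of the DNA repair nuclease, had 134 of 184 and 137 of 173 reads outside exons, with rest densities 1.83 and 2.59 times those of exons. cox12, of a cytochrome c oxidase subunit, had 144 of 189 and 161 of 206, with ratios of 1.80 and 2.01. rex2, of an RNA exonuclease, had 35 of 50 in WT and 90 of 118 in exo2Δ. In pan3, of a subunit of the poly(A) nuclease, 178 reads in WT and 114 in exo2Δ lay outside coding exons. An rRNA gene annotated on the same strand inside pan3 (I:3547889-3548049, SPRRNA.15, in the files' coordinates) held 176 and 112 reads, so the reads cannot be assigned to the mRNA. Such a second feature on the same strand overlapped 68 of the 329 members.

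Read counts differed between the exons of a member, as did exon lengths. Of the 178 members with a mean of at least 50 exon reads, 84 in WT and 91 in exo2Δ had over 50% of them in a single exon. The exon with the most reads was also the longest in 123 of the 178 in WT and in 126 in exo2Δ, and it was the same exon in both libraries in 150. These counts were not corrected for exon length, and no share over all mRNAs was computed. trt1, of the telomerase catalytic subunit and with 16 coding exons the most divided member, had low and spread values. Its gene held 88 reads in WT and 97 in exo2Δ, and its exons between 0 and 9 reads in WT and between 0 and 26 in exo2Δ. The 4th exon of 263 nt was the highest in exo2Δ, with 26 reads against 8 in WT, a ratio of 3.24 (1.43 to 8.29). In clr6, of a histone deacetylase, 14 exons summed to 104 and 117 reads, and its exons 5 (31 nt) and 13 (59 nt) had 0 reads in both libraries. In rdh54, of a recombination DNA translocase, the first 3 of its 15 exons, spanning 179, 99 and 76 nt, had 0 reads in both libraries, while the 616-nt exon 12 held 9 and 16. gem1 (13 exons), of a mitochondrial GTPase, held 83 and 52 reads, with 0 and 1 outside exons. trk2 (13 exons), of a potassium transporter, held 100 and 57 reads, with 38 and 17 of them in its 901-nt exon 3.

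The member with the most reads, ppk26, had most of them in an exon that was not its longest. It encodes a protein that RefSeq names a PAN complex subunit, lies at II:2765269-2767767 on the - strand in the files' coordinates, and has 12 coding exons. Its gene held 4784 reads in WT and 1154 in exo2Δ. The 95-nt exon 2 alone held 4464 reads in WT and 1007 in exo2Δ, 98.0% and 90.2% of the gene's exon reads. This exon gave 12.9% of all member exon reads in WT and 3.58% in exo2Δ. It was 4.44 times lower in exo2Δ (4.15 to 4.76). The other 11 exons together held 91 and 109 reads in WT and exo2Δ, a ratio of 1.20 (0.897 to 1.60), against 0.225 (0.210 to 0.241) for exon 2. The introns and untranslated parts of ppk26 went from 229 to 38 reads, a ratio of 0.166 (0.114 to 0.234). Whether some of these reads cross an edge of exon 2 is not known, because how such reads were counted is not given. The start of exon 2 is shown to identify it, with the last 10 bases of the intron in lower case and the first 20 bases of the exon in capitals (ASM294v3, II:2767532-2767561, - strand):
ppk26 exon 2: tttttaatagACCATTCCAAAGCTAAACGA

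The table gives no read positions or lengths within the exon, so where in its 95 nt the 4464 and 1007 reads lie is not known.

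**Figure D2:**
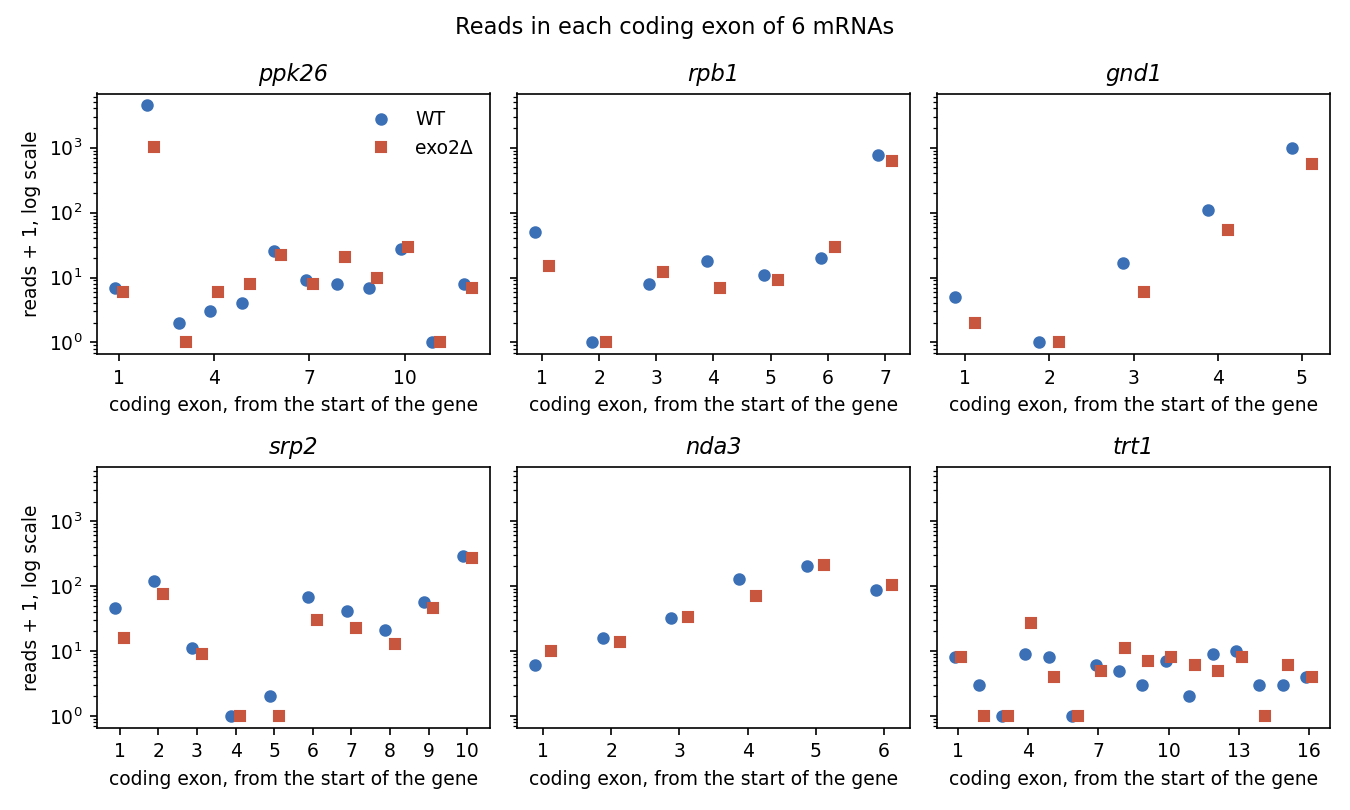
Reads + 1 (log scale) in each coding exon, numbered from the start of the gene, of ppk26, rpb1, gnd1, srp2, nda3 and trt1 in WT (circles) and exo2Δ (squares). Exon 2 of ppk26 stands far above its other exons in both libraries. The last exon, which is also the longest, holds the most reads in rpb1, gnd1 and srp2. Exon 2 of gnd1 and exon 4 of srp2 have none.

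In 3 other members with many reads, rpb1, gnd1 and srp2, the long last exon held the most. These exons made up 93.2%, 89.6% and 53.6% of the coding exon length of their genes. Their shares of the exon reads were 88.3%, 88.6% and 44.7% in WT and 90.2%, 90.6% and 56.8% in exo2Δ, so the counts largely followed length. In rpb1 the 4902-nt last exon held 774 reads in WT and 628 in exo2Δ, of 877 and 696 exon reads. gnd1, of the pentose phosphate enzyme phosphogluconate dehydrogenase, had 995 and 561 reads in its 1325-nt last exon, of 1123 and 619. The 588-nt last exon of srp2, of an SR-type RNA-binding protein, held 290 and 269 reads, of 649 and 474. In srp2 the last exon was nearly level between libraries, with a ratio of 0.926 (0.781 to 1.10), while its first exon of 43 nt went from 45 to 15 reads, a ratio of 0.333 (0.172 to 0.608). In pdx1, named pyruvate dehydrogenase Pdx1 in RefSeq, the gene held 538 reads in WT and 851 in exo2Δ, a ratio of 1.58 (1.42 to 1.76), and each of its 6 exons held more reads in exo2Δ than in WT, led by the 630-nt exon 4 with 280 and 417. nda3 went from 128 to 69 reads in exon 4, a ratio of 0.538 (0.395 to 0.726), while its exons 5 and 6 went from 204 to 213 and from 85 to 104.

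The density of the last against the first coding exon was compared in the 212 members that averaged 10 or more reads in both exons together. In WT the median log2 ratio of last over first was -0.32 (quartiles -1.51 and 0.63), and in exo2Δ it was -0.13 (-1.26 and 0.99). The last exon was denser than the first in 92 of 212 members in WT and in 102 in exo2Δ. With 0.1 read added in place of 1 the exo2Δ median was 0.20. First exons under 20 nt had a pooled density of 0.292 tag/nt in WT and 0.164 tag/nt in exo2Δ, against 0.0631 and 0.0528 tag/nt over all first exons. rpb1 supplied 50 of these 105 WT reads, and without it the pooled densities were 0.160 and 0.131 tag/nt. The median density of the 32 exons was 0.0596 tag/nt in WT, and in exo2Δ it was 0. In the 70 members whose first and last exons both had at least 100 nt, the medians were -0.16 and -0.04.

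Among the 57 members that averaged 50 or more reads in both exons together, the extremes often paired a short with a long exon. crn1, of the actin-binding protein coronin, and rpb1 were lowest. In crn1 the 34-nt first exon held 78 reads in WT and 57 in exo2Δ and the 1402-nt last exon 135 and 76, log2 ratios of -4.58 and -4.96. In rpb1 the log2 ratio was -4.43 in WT and -2.96 in exo2Δ, since its first exon went from 50 to 14 reads. idh2, of mitochondrial isocitrate dehydrogenase, had first and last exons of similar length (72 and 107 nt) with 55 and 43 reads in the first and 7 and 9 in the last, or -3.38 and -2.71. vma5, of a subunit of the vacuolar proton pump, had 43 and 38 reads in 147 nt at the start and 5 and 14 in 204 nt at the end, or -3.35 and -1.85. In pet802, of a transporter of S-adenosylmethionine, the values were -2.48 and -2.72.

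At the other end, par1, of a regulatory subunit of protein phosphatase PP2A, had 0 reads in its 24-nt first exon in both libraries and 83 and 59 in its 259-nt last exon. In dim1, of a protein of the U4/U6.U5 tri-snRNP of the spliceosome, the 35-nt first exon held 1 read in each library and the 216-nt last exon 53 and 52. cbs2, annotated as an activator of a protein kinase, had 1 and 3 reads in 36 nt against 104 and 92 in 329 nt. gnd1 had 4 and 1 in 17 nt against 995 and 561 in 1325 nt. Of these 5, mms19, of a factor linked to TFIIH, had a long first exon, with 61 and 54 reads in 469 nt, and a short last one, with 13 and 18 reads in 49 nt, log2 ratios of 1.11 and 1.73.

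Within a member, the ratio of last over first exon was more often higher in exo2Δ than in WT. The change was upward in 136 members, downward in 72 and 0 in 4. Its median was 0.33 on the log2 scale (quartiles -0.37 and 0.97), or 1.26-fold. This comparison was added after the data were seen. It does not depend on the scaling between libraries, because each ratio is formed within 1 library. With both exons of at least 100 nt the median change was 0.40, upward in 50 and downward in 19 of 70. In summed reads over all 329 members, first exons went from 2958 to 2477, a ratio of 0.836 (0.792 to 0.882), and last exons from 8472 to 8251, a ratio of 0.972 (0.943 to 1.002). Internal exons went from 23184 to 17405, a ratio of 0.749, or from 18642 to 16300 without ppk26, a ratio of 0.873 (0.854 to 0.891).

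The same tilt was seen in mRNAs with fewer exons, with smaller medians. In 1776 mRNAs with 2 to 4 coding exons the median change was 0.10, upward in 982 and downward in 773. It was 0.07 with 2 coding exons, 0.13 with 3, 0.26 with 4, 0.29 with 5, 0.36 with 6 and 0.58 with 7 or more. The quartiles of these classes overlapped. mRNAs with more exons also spanned more sequence, 1195 nt at the median with 2 coding exons and 2174 nt with 7 or more, and had shorter last exons, 725.5 against 280 nt. Among members spanning 1500 nt or more from first to last exon the median change was 0.40 (127 members), and among shorter ones 0.20 (85). Among mRNAs with 2 to 4 coding exons it was 0.06 in long spans (677) and 0.13 in short ones (1099). Whether RNA quality differed between the 2 preparations was not tested.

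**Figure D3:**
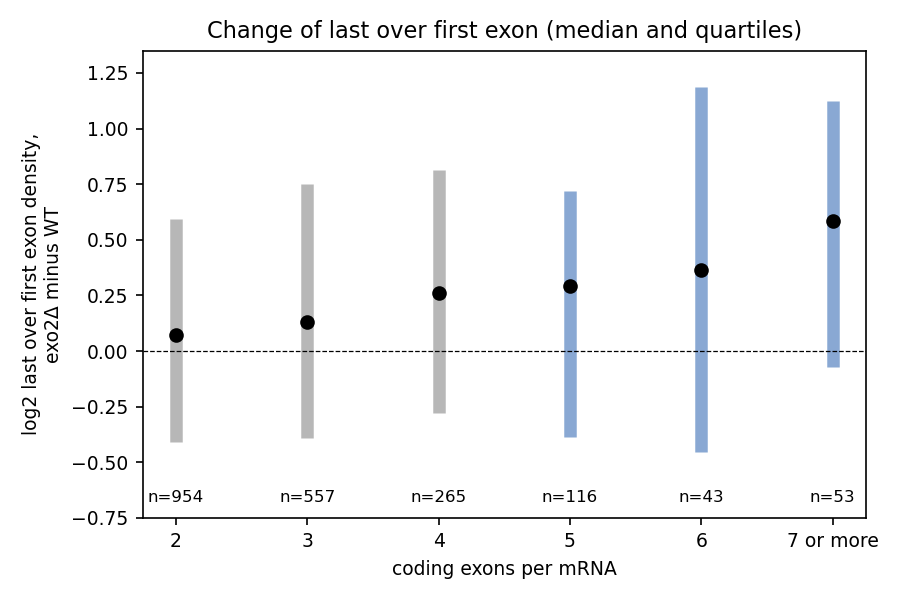
Change of the log2 ratio of last over first coding exon density from WT to exo2Δ (vertical), by number of coding exons per mRNA (horizontal). Points are medians and bars span the quartiles over n mRNAs, grey for mRNAs with under 5 coding exons and blue for members. The medians go from 0.07 with 2 coding exons to 0.58 with 7 or more, and the bars overlap.

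Single exons were then compared by their place in the mRNA. For the member exons averaging 10 or more reads, the median log2 ratio of exo2Δ over WT was -0.26 for the first exon (80 exons), -0.38 for the second (88) and -0.30 for the third (99), then -0.11 for the fourth (108) and -0.01 for the fifth (134). Counted from the end, it was -0.04 for the last exon (146), -0.01 for the one before (126), then -0.16 (109), -0.15 (98) and -0.38 for the fifth from the end (92). In members with 5 coding exons these counts name the same exons from both sides. The first exon was lower in exo2Δ in 58 of 80 and the last in 78 of 146.

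**Figure D4:**
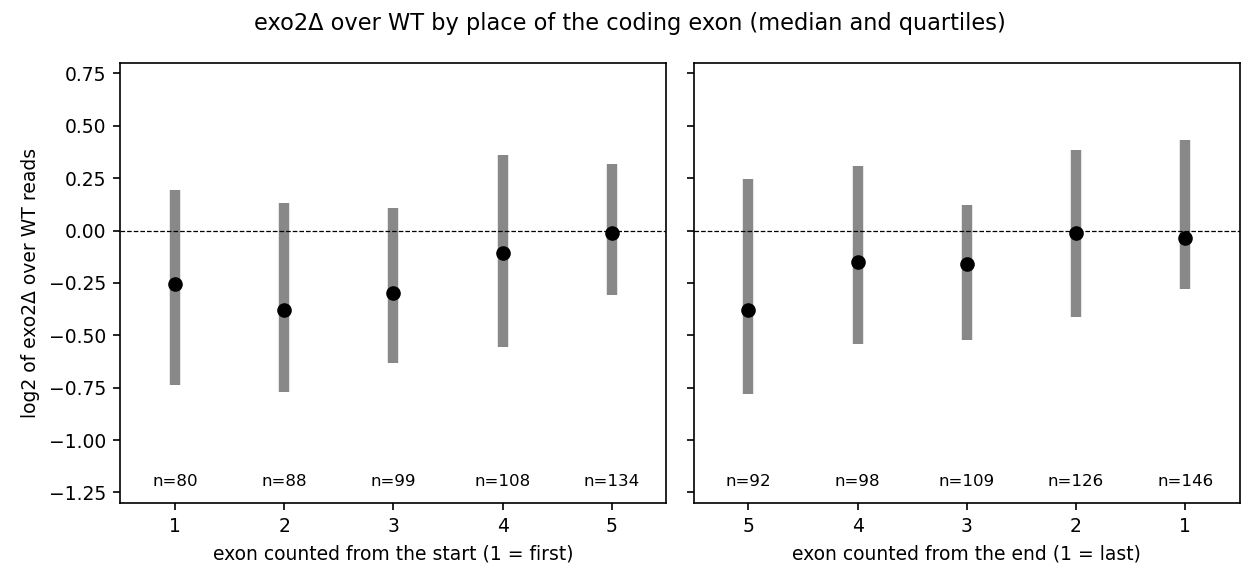
log2 of exo2Δ over WT reads of single coding exons (vertical) by place in the mRNA, counted from the start (left) and from the end (right, drawn so that the 3′ end lies at the right). Points are medians and bars span the quartiles over the n exons with a mean of at least 10 reads. Medians lie between -0.26 and -0.38 for the first 3 exons and at -0.04 for the last.

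Whole members differed little between libraries. The median log2 ratio of exo2Δ over WT was -0.15 (quartiles -0.53 and 0.16), with 200 members lower and 106 higher in exo2Δ, and the median over all mRNAs tested was also -0.15. It was -0.18 for the exons and -0.19 for the rest of the gene. By exon number it was -0.15 with 5 coding exons, -0.18 with 6, -0.13 with 7 and -0.14 with 8 or more, against -0.13 with 1 and -0.17 with 2 to 4. The level itself was lower in mRNAs with 5 or more coding exons than in those with fewer, in both libraries. It did not fall at each step. Over all mRNAs of a class, without the read filter, the median density of the gene was 0.0511 tag/nt in WT and 0.0479 tag/nt in exo2Δ with 1 coding exon. It was 0.0293 and 0.0256 tag/nt with 6, 0.0309 and 0.0266 tag/nt with 7, and 0.0238 and 0.0203 tag/nt with 8 or more. For the exons alone it was 0.0602 and 0.0565 tag/nt with 1, 0.0615 and 0.0561 tag/nt with 2 to 4, and 0.0296 and 0.0238 tag/nt with 8 or more. The study describes mapping of the small RNAs with Bowtie and no step that places reads joining 2 exons across an intron. mRNAs with more coding exons have more such joins. The effect of such reads on these densities was not tested.

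A ratio over 2 was the fixed rule for a large difference. Among the 306 members, 6 were higher in exo2Δ by this rule, or 1.96%, with 2.41% over all mRNAs. There were 15 lower, or 4.90%, with 5.07% over all mRNAs. Counted by reads alone, the interval of the ratio lay above 1 in 30 members and below 1 in 78, with backgrounds of 13.8% and 29.0%. These shares compare 2 libraries and not the strains. Of single exons, 633 had enough reads, of which 24 (3.79%) were over 2 times higher, with a background of 3.32%, and 63 (9.95%) over 2 times lower, with a background of 7.83%.

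**Figure D5:**
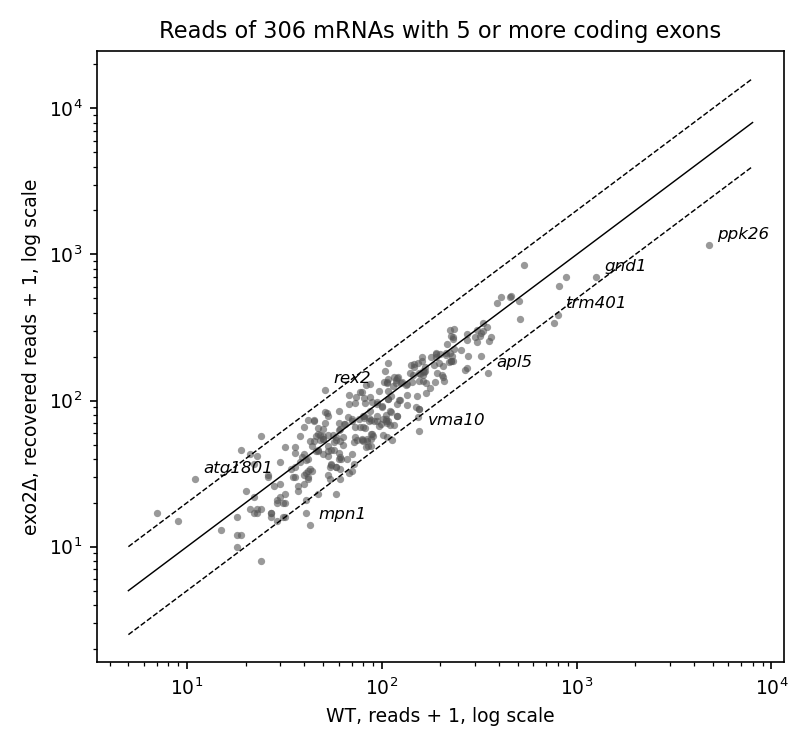
Reads + 1 of the 306 members in WT (horizontal) and exo2Δ (vertical), both on log scales. The solid line marks equality and the dashed lines a ratio of 2, and ppk26 lies farthest below them with 4784 and 1154 reads.

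Of the members with at least 50 reads on average, ppk26, vma10, apl5, cnt5 and gih35 had the lowest ratios. vma10, of subunit G of the vacuolar proton pump, went from 155 reads to 61, 2.55 times fewer (1.88 to 3.48). apl5, of a subunit of the AP-3 adaptor that sorts vesicles, had 351 and 153, 2.30 times fewer (1.90 to 2.80). All 5 of its coding exons were lower in exo2Δ. cnt5, of a centaurin, had 768 and 336, 2.29 times fewer (2.01 to 2.61). Its 1627-nt exon 5 went from 595 to 203 reads, a ratio of 0.340 (0.289 to 0.400), while its 488-nt last exon held 100 and 96, a ratio of 0.958 (0.716 to 1.28). gih35, of an RNA helicase, had 69 and 32, 2.16 times fewer (1.40 to 3.40). In gnd1 the fall was 1.79-fold (1.63 to 1.97), below the rule.

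At the other end of the range, rex2 went from 50 reads to 118, a ratio of 2.36 (1.68 to 3.35), and most of them lay outside its coding exons. Its rest had a ratio of 2.57 (1.72 to 3.91) and its exons 1.86 (0.962 to 3.75). prp17, of a splicing factor, had 106 and 179 reads, a ratio of 1.69 (1.32 to 2.16). Its exons went from 63 to 56 reads, a ratio of 0.887 (0.608 to 1.29), and its rest from 43 to 123, a ratio of 2.85 (2.002 to 4.14), with 5911 nt annotated after the last coding exon. The higher value of prp17 was thus outside its coding exons. sap114, of a U2 snRNP protein, had 41 and 73 reads, a ratio of 1.78 (1.20 to 2.67). cds1, of the replication checkpoint kinase, had 39 and 65, and sif2, named Sad1-interacting factor 2, had 50 and 83, with ratios of 1.66 for both.

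Gene groups held few members. Of 374 measured genes on 9 lists, 43 were members, and among them rpb9 and apl5 passed the rule, both lower in exo2Δ. Counts of lower members on a list stand beside 65.4% of all 306 members and 62.9% of 4738 mRNAs that were lower in exo2Δ, and they move with the scaling. The list of 14 measured ubiquitin-conjugating enzymes held 7 members, of which 6 had enough reads, 5 lower and 1 higher in exo2Δ, with a median log2 ratio of -0.43 against -0.15 over all mRNAs. ubc15 had 106 and 115 reads, rhp6, the Rad6 enzyme that marks histone H2B, 111 and 83, and mms2, of a DNA damage tolerance protein, 69 and 42. The median exon share of the 6 members with enough reads was 54.8% in WT and 54.1% in exo2Δ, below the 85.7% and 85.6% of all members. These shares are not corrected for the length of the coding exons. Densities per nt were not compared for this list.

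The 25 measured small GTPases held 8 members, 5 higher and 3 lower, with a median of 0.12 and no ratio over 2. ypt1, of a secretory Rab GTPase, had 205 reads in WT and 145 in exo2Δ. Of 41 measured tubulin, actin and motor genes 7 were members, 6 lower and 1 higher, with a median of -0.13. nda3 had 505 and 483 reads, arp3, of the Arp2/3 actin nucleator, 307 and 305, and cdc4, of a myosin light chain, 162 and 148. Of 81 splicing factor genes 7 were members, 5 lower and 2 higher, with a median of -0.27. srp2 had 807 and 607 reads, prp3, of the tri-snRNP, 226 and 187, and cdc5, of the Prp19 complex, 154 and 135.

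Of 73 measured protein kinase genes 7 were members, 3 higher and 4 lower, with a median of -0.07. cka1, of casein kinase 2, had 330 reads in WT and 297 in exo2Δ, pck1, of a protein kinase C, 126 and 132, and chk1, of the DNA damage checkpoint kinase, 106 and 101. Of 45 vesicle coat and SNARE genes 4 were members, 3 lower and 1 higher, with apl5 first, sly1, of a SNARE-binding protein, at 138 and 153 and vti1, of a SNARE, at 119 and 78. Of 31 RNA polymerase genes the members were rpb1, with 883 and 702 reads, and rpb9, of a small subunit of RNA polymerase II, with 46 and 22, 2.10 times fewer (1.24 to 3.66). rpb9 overlaps another gene on its strand, so part of its reads may belong there. Of 29 translation initiation genes 1 was a member, tif223, with 230 and 185, and of 35 proteasome genes 0 were.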

How the data were processed

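Per the labels, total RNA of 1 WT and 1 exo2Δ culture gave 1 small RNA library each. The authors trimmed adapters with cutadapt, mapped the uniquely placed reads with Bowtie, tolerating 3 mismatches, and deposited a signal, the tag density in tag/nt, for 19343 features (build ASM294v2 per the submitters' processing notes). The study selected reads by length for part of its analysis. Whether the deposited values were so filtered, and how a read crossing a feature's edge was counted, are not given in the sources used here. The 3-nt exon 5 of trk2 held 1 read in WT, so some reads longer than an exon were counted in it. Density times length was whole (within 0.001) in 100% of WT rows, and in exo2Δ a whole multiple of 0.998, taken as the authors' factor. Reads are these recovered counts, and densities are as deposited. 0 value columns were left unused. 2 members, mpo1 and qtr2, qualified through exons of another gene, leaving 327 by their own exons.

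With 1 library per strain no model was fitted and no test run. Log2 ratios add 1 read to both sides, which understates changes of genes with few reads, and a filter kept those reaching 10 reads averaged over both libraries. Intervals printed with shares and ratios are exact binomial (Clopper-Pearson). The interval of a main median, used for the recomputed medians below, is taken from the ordered values of the members. It reflects the spread between members and not counting error alone. Named genes are the 5 members with the most exons, the 5 with the most reads, the 5 highest and lowest ratios and largest shares outside exons at a mean of at least 50 reads, the 5 highest and lowest last over first exon densities at 50 reads in both exons, and the 3 with most reads per list, of which 1 is not reported here. Members and lists were chosen with earlier results of these data known. Reading and counting steps were tested on simulated data. Symbols of all 329 members were matched in RefSeq. Python 3.11.15, pandas 2.3.3 and SciPy 1.17.1 were used.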

Additional observations from a re-analysis of the deposited data

How the results depend on the processing

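No paired analysis was possible because the design holds a single library of WT and a single library of exo2Δ. Of 81 values recomputed under other settings, 61 stayed within the interval of the main median, or for counts within 1.5 times. The median exon share was 81.7% (WT) and 80.8% (exo2Δ) as pooled reads, and 88.4% and 89.5% with 6 or more coding exons. Adding 5 reads in place of 1 gave -1.35 and -1.31 for rest over exons and -0.82 and -0.71 for last over first exon, and adding 0.1 read gave 0.20 for last over first in exo2Δ. The median ratio of whole members was -0.39 when scaled to the sum of sn(o)RNA reads and 0.00219 when scaled to the median mRNA, so its sign rests on the scaling. The first scaling moves all log2 ratios by -0.24 and the second by 0.16. Lower members then numbered 33 and 8 in place of 15. At a mean of 50 reads 1 member was higher and 7 lower, at a ratio over 4 there were 0 and 1 (ppk26), and by the interval of the ratio 30 and 78. Except for the interval, shares over all mRNAs were not computed under these scalings and thresholds. Without those shares, nothing particular to the members can be read from these counts. The summed exon reads had a ratio of 0.897 without ppk26, against 0.811 with it. The change of last over first exon between libraries stayed between 0.24 and 0.41 in all its alternatives, which were chosen after seeing the data, as were the 327 members by own exons and the values without ppk26 or rpb1. Of 144 recomputed values of named members, 15 left their counting interval, 11 of these under sn(o)RNA scaling, where idh2 turned to -0.00627 from 0.24. Of the 48 named members 10 changed sign under sn(o)RNA scaling and 7 under scaling to the median mRNA. Depth limits single exons: 270 of 2009 exon entries had no read in either library.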
